A study of Danio rerio with 9 samples.

Results

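Expression of 8 genes of pharyngeal arch patterning was followed in 9 RNA-seq libraries of sorted zebrafish embryo cells: the endothelin ligand gene edn1, the endothelin type A receptor genes ednraa and ednrab, the homeobox genes barx1, emx2 and gsc, and the genes of the secreted proteins Fgf20b and Gremlin 2b, fgf20b and grem2b. They were chosen by name, with earlier results of these data known. They are 8 of the 31953 genes of the count table, and 7 of the 8 were among the 20847 genes of the second table, which does not list gsc. Cardiac crest (n = 3 libraries) was the mCherry-positive fraction of transgenic embryos, which carried -4.9sox10:GAL4-UAS-cre, the UAS:NfsB-mCherry reporter and the heart reporter myl7:nucGFP. It was sorted at the 16-somite stage, 17 h post-fertilisation (hpf), from the region between the midbrain-hindbrain boundary and somite 6. Trunk crest (n = 3) was the GFP-positive fraction of Tg(-4.9sox10:eGFP) embryos at 24 hpf, from somites 7 to 16. Non-crest (n = 3) was the mCherry-negative fraction of the same line, region and stage as cardiac crest. In all groups the sort rests on a reporter driven by a 4.9 kb sox10 fragment, sequence that is also active in the ear. Age, fish line, reporter and series of library numbers cannot be told apart from axial level between cardiac and trunk crest. Whether each replicate was a separate pool of embryos is not given, so the p-values reflect variation among these libraries, which may be no more than technical.

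Cranial neural crest cells move into the pharyngeal arches and form most of the skeleton of the jaw and gills. In the arches, Endothelin 1 made by ectoderm, endoderm and mesoderm acts on type A receptors of the crest cells and gives them ventral, lower-jaw identity, in part through Dlx, Hand and Msx factors. Jagged-Notch signalling favours dorsal identity, and BMP signals and their secreted antagonists sharpen the borders between domains. Trunk crest forms no such skeleton and gives rise to neurons, glia and pigment cells.

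Depth was 34062539 to 45172404 reads in the 6 libraries of the count table and 25128422 to 29842884 reads over the listed genes in the trunk crest libraries. The crest transcription factor gene sox10 had 363, 445 and 245 counts per 1000000 reads (CPM) in cardiac crest, against 27.6, 26.8 and 8.92 CPM in non-crest. It thus separated the groups, but non-crest was not free of crest transcripts. Cardiac crest libraries were also all above non-crest libraries for tfap2a, ets1, snai1b, snai2 and twist1a, but overlapped them for sox9b and tfap2b. Cardiac crest replicate 3 stood apart from the other cardiac crest libraries: its 9 muscle marker genes summed to 8534 CPM, against 13.0 and 23.1 CPM in replicates 1 and 2. In non-crest that sum was 6740 to 10381 CPM. Non-crest replicate 3 stood apart within its group. Of 9 matched crest markers, 5 were lowest there among the non-crest libraries (sox10, tfap2a, ets1, sox9b and tfap2b), 2 were highest (twist1a, and foxd3 with 1 read) and 2 lay between. The sums were close, at 336, 306 and 296.5 CPM in non-crest replicates 1, 2 and 3, but twist1a was the largest part of each, at 145, 111 and 215 CPM. The 9 endothelium and blood markers of non-crest replicate 3 summed to 2332 CPM, against 875.5 and 810.4 CPM in replicates 1 and 2. Other sums were lower in non-crest replicate 3 than in replicates 1 and 2. For 6 heart markers they were 15.27 CPM, against 154.5 and 138.2 CPM. For 9 neural tube markers they were 375.7 CPM, against 1168 and 1070 CPM. The crest marker foxd3 had 0 reads in all cardiac crest libraries. In each library of the count table, 2 of 9 neural tube markers also had 0 reads. Whether such zeros come from counting or from expression was not tested. In bulk libraries, fewer cells of a type and less RNA per cell cannot be told apart.

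Levels across the 3 groups are given below in RPM, reads scaled to a library total of 1000000 over the 20847 listed genes, with the number of reads where it is small. A floor of 3 reads was 0.0672 to 0.0881 RPM in cardiac crest, 0.101 to 0.119 RPM in trunk crest and 0.0673 to 0.0848 RPM in non-crest. The libraries have no molecular identifiers, so floors and counting intervals cover counting error only. Cardiac crest was tested against non-crest on counts with edgeR's quasi-likelihood test. Against trunk crest it was tested on size-factor-scaled reads with limma on log2(value + 1), which can shift the fold change of low genes in either direction. Both tests were fitted across all genes with Benjamini-Hochberg adjustment, and a gene was called at an adjusted p below 0.05. Trunk crest and non-crest are in different tables and were not tested against each other. Both comparisons use the same 3 cardiac crest libraries, so their results are not independent.

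**Figure D1:**
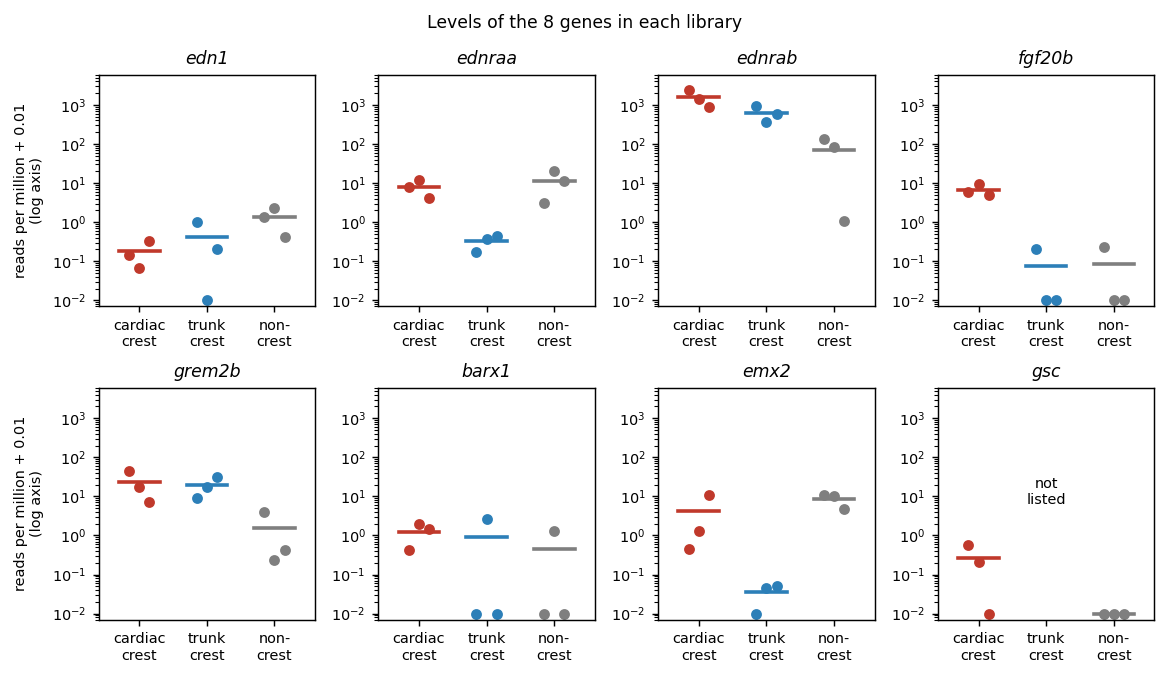
Level of each of the 8 genes in every library, in RPM over the 20847 listed genes plus 0.01 (log axis), with cardiac crest in red, trunk crest in blue and non-crest in grey. For gsc the axis is CPM of the count table, and trunk crest has no value. Points are libraries and lines are group means (n = 3). The gene with the highest level is ednrab, with cardiac crest libraries between 874 and 2411 RPM, and fgf20b is the gene with cardiac crest libraries well above all others, at 4.92 RPM or more against 0.226 RPM or less.

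The ligand gene edn1 (ENSDARG00000036912, GRCz10 chromosome 19, 3435532 to 3440524, minus strand) was low in sorted crest, at 30 reads or fewer per library. It had 6, 2 and 13 reads in cardiac crest (0.134, 0.0587 and 0.324 RPM), 30, 0 and 5 reads in trunk crest (1.01, 0 and 0.199 RPM) and 49, 80 and 18 reads in non-crest (1.38, 2.24 and 0.404 RPM). All cardiac crest libraries were below all non-crest libraries, while cardiac and trunk crest overlapped. The log2 fold change of cardiac crest over non-crest was -2.83 ± 0.96 (SE), with an adjusted p of 0.295 by edgeR's quasi-likelihood test, so the difference was not called. The ratio of the summed reads, 21 for cardiac crest against 147 for non-crest, was 0.141 after scaling to depth, with a 95% counting interval of 0.0845 to 0.223. Against trunk crest the log2 fold change was -0.38 ± 1.32 (adjusted p = 0.865, limma), with a 95% interval of -3.38 to 2.62 that is too wide to set a direction. The authors' deposited table gives 1.50 for trunk over cardiac (adjusted p = 0.569). The sum of marker genes of the epidermis, one source of edn1 in the arches, was also highest in non-crest, but lower in trunk than in cardiac crest. Over 9 markers it was 767 to 936 RPM in cardiac crest, 359 to 587 RPM in trunk crest and 6860 to 18214 RPM in non-crest. Against trunk crest, 2 of 9 epidermis markers were called higher in cardiac crest and 1 lower by limma. Against non-crest, 4 of 10 were called lower in cardiac crest and 0 higher by edgeR. Markers of endoderm and pouches, another source, had the same order as sums, but not each of them did. The marker foxa2 overlapped, at 2.395, 33.56 and 21.54 CPM in cardiac crest and 22.35, 22.38 and 2.922 CPM in non-crest. Of 6 endoderm and pouch markers tested against non-crest by edgeR, 0 were called. Against trunk crest, 3 of 6 were called higher in cardiac crest and 0 lower by limma. Of the endoderm and pouch markers, 6 summed to 5.91 to 53 RPM in cardiac crest, 0.938 to 2.1 RPM in trunk crest and 81.6 to 97.1 RPM in non-crest. The part of epidermal and endodermal transcripts in the edn1 values was not tested.

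The receptor genes had very different levels. The gene ednrab (ENSDARG00000062262, chromosome 23, 45958860 to 45970337, minus strand) had 2411, 1426 and 874 RPM in cardiac crest, 957, 359 and 587 RPM in trunk crest and 133, 82.0 and 1.03 RPM in non-crest. Every cardiac crest library was above every non-crest library, but the lowest cardiac crest library was below the highest trunk crest library. Per kilobase of gene body, the cardiac crest mean of 137 ± 67.8 RPM per kb (SD, n = 3) was rank 193 of the 20847 genes. Gene body length holds the introns, and exon length was not used here, so ranks are those of this scale and place genes with long introns low. In trunk crest ednrab was rank 462, at 55.3 ± 26.3 RPM per kb, and in non-crest it was rank 2405, at 6.27 ± 5.79 RPM per kb.

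The log2 fold change of ednrab in cardiac crest over non-crest was 4.60 ± 1.30 (SE), with an adjusted p of 0.195 by edgeR. Non-crest replicate 3, far below the other non-crest libraries for ednrab, was the lowest of them for 5 of 9 crest markers and the highest for 2. Its crest marker sum was close to theirs, with twist1a, at 215 CPM, as its largest part. Without non-crest replicate 3 the log2 fold change was 3.98 with an adjusted p of 0.0188 by edgeR. That was the lowest of the edgeR fits without 1 library, whose adjusted p-values ran up to 0.533. With a replicate block the edgeR adjusted p was 0.107. DESeq2 on all 6 libraries gave 4.59 with an adjusted p of 0.000272. The part of crest cells left in non-crest, and of its endothelium and blood transcripts, was not tested. Against trunk crest the log2 fold change was 0.97 ± 0.44, with an adjusted p of 0.145 by limma and a 95% interval of -0.02 to 1.96. The authors' deposited table gives -1.01 for trunk over cardiac (adjusted p = 0.105).

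Its paralogue ednraa (ENSDARG00000011876, chromosome 1, 35933516 to 35970328, plus strand) had 8.15, 12.1 and 4.22 RPM in cardiac crest, 0.168, 0.362 and 0.438 RPM in trunk crest and 3.11, 20.1 and 11.1 RPM in non-crest. All cardiac crest libraries were above all trunk crest libraries, whereas cardiac crest and non-crest overlapped. The gene was higher in cardiac than in trunk crest by 4.18 ± 0.62 on the log2 scale (SE; adjusted p = 0.00188, limma), with a 95% interval of 2.77 to 5.59. That difference rests on 945 cardiac crest reads, against 26 trunk crest reads, a depth-scaled ratio of 20.2 with a 95% counting interval of 13.7 to 31.1. The authors' deposited table, whose fold runs trunk over cardiac, gives -4.32 on the log2 scale for ednraa with an adjusted p of 1.47e-10. Against non-crest the log2 fold change was -0.47 ± 0.70 (adjusted p = 0.868, edgeR), and it was 0.06 without non-crest replicate 2, the highest library.

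The share of ednraa among receptor reads had its own range in each group. Of the reads on both genes, ednraa took 0.337%, 0.842% and 0.480% in cardiac crest, 0.0175%, 0.101% and 0.0745% in trunk crest, and 2.29%, 19.7% and 91.5% in non-crest. The 3 groups did not overlap: trunk crest had the lowest shares, cardiac crest the middle ones and non-crest the highest and most variable. The mean share in cardiac crest minus that in trunk crest was 0.489 percentage points, and minus that in non-crest it was -37.3 points. The two-sided exact permutation p was 0.1 for each, the smallest that 3 libraries against 3 allow, and it stays 0.1 after adjustment over both. These are shares of reads on genes of unequal length, so they compare groups and not the genes themselves.

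**Figure D2:**
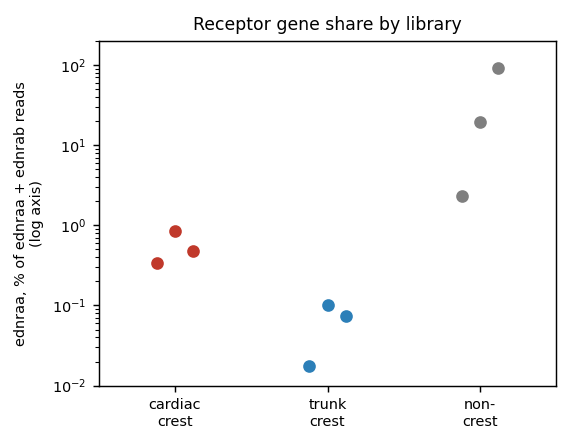
Share of ednraa in the summed reads of ednraa and ednrab, in percent (log axis), for each library of cardiac crest (red), trunk crest (blue) and non-crest (grey). The points are single libraries: cardiac crest lies between 0.337% and 0.842%, trunk crest at or below 0.101% and non-crest at or above 2.29%.

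The gene fgf20b (ENSDARG00000086070, chromosome 14, 30151576 to 30152775, plus strand) codes for a secreted fibroblast growth factor of the Fgf9 subfamily. It had 257, 327 and 197 reads in cardiac crest (5.76, 9.61 and 4.92 RPM), 6, 0 and 0 reads in trunk crest (0.201 RPM in replicate 1) and 8, 0 and 0 reads in non-crest (0.226 RPM in replicate 1). Cardiac crest libraries were all above those of both other groups, in each of which a single library held every read. Replicate 1 of non-crest, which held the 8 reads, was also its highest library for ednrab, grem2b and emx2. For edn1, ednraa and barx1 the highest was replicate 2.

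In cardiac over trunk crest, fgf20b was higher by 6.54 ± 0.91 on the log2 scale (SE; adjusted p = 0.00135, limma), with a 95% interval of 4.48 to 8.60. The depth-scaled ratio of reads was 72.4 (95% counting interval 33.1 to 198). The authors' deposited table gives -6.25 for trunk over cardiac, with an adjusted p of 2.96e-10. Against non-crest the log2 fold change was also 6.54, with an SE of 1.41 and an adjusted p of 0.0806 by edgeR, short of the threshold, on a read ratio of 96.1 (48.5 to 223). DESeq2 on the same counts gave 6.59 with an adjusted p of 3.7e-08. Without non-crest replicate 1 the edgeR adjusted p was 0.0281, and non-crest then held 0 reads. That was the lowest of the edgeR fits without 1 library, whose adjusted p-values ran up to 0.298.

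The gene grem2b (ENSDARG00000103092, chromosome 12, 47545974 to 47560418, minus strand) codes for a secreted BMP antagonist that marks the dorsal arch in zebrafish larvae. It had 44.0, 17.2 and 7.39 RPM in cardiac crest, 8.95, 17.4 and 30.8 RPM in trunk crest and 3.98, 0.224 and 0.426 RPM in non-crest. The ranges of the crest groups overlapped, and every crest library was above every non-crest library. Cardiac over non-crest was 4.03 ± 1.18 on the log2 scale (SE; adjusted p = 0.208, edgeR), and DESeq2 gave 4.01 with an adjusted p of 0.00173. Without 1 library, the edgeR adjusted p-values were 0.0735 to 0.707. Cardiac over trunk crest was -0.26 ± 0.68 (adjusted p = 0.819, limma), and the 95% interval of -1.81 to 1.29 does not show the groups to be alike. It was 0.37 without cardiac crest replicate 3, 0.18 without trunk crest replicate 3 and 0.01 by edgeR on the recovered reads. The authors' deposited table gives 0.02 for trunk over cardiac (adjusted p = 0.987).

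The homeobox gene emx2 (ENSDARG00000039701, chromosome 13, 19191704 to 19196675, plus strand) is known for its role in the forebrain and, in zebrafish, in the orientation of hair cells. It had 20, 43 and 441 reads in cardiac crest (0.448, 1.26 and 11.0 RPM), 0, 1 and 1 reads in trunk crest (0.0398 RPM at most) and 375, 365 and 212 reads in non-crest (10.6, 10.2 and 4.76 RPM). Cardiac crest was above trunk crest in every library, and its replicate 3 reached the non-crest range. That library was also the cardiac crest library with the highest muscle sum, given above, and the highest neural tube sum. Its 9 neural tube marker genes summed to 652 CPM, against 240 and 296 CPM in replicates 1 and 2. In non-crest that sum was 376 to 1168 CPM. Not every marker followed the sum. The marker elavl3 was lowest in cardiac crest replicate 3, at 48.8 CPM, against 63.1 and 86.8 CPM in replicates 1 and 2.

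Cardiac over trunk crest, emx2 was higher by 4.93 ± 1.14 on the log2 scale (SE; adjusted p = 0.0151, limma), with a 95% interval of 2.35 to 7.52. Without cardiac crest replicate 3 it was 3.66 with an adjusted p of 0.0336 by limma. The authors' deposited table gives -7.09 for trunk over cardiac (adjusted p = 3.65e-05). The trunk crest side rests on 2 reads, which gives a ratio of 140 with a 95% counting interval of 38.6 to 1160. Against non-crest the log2 fold change was -0.97 ± 1.03 (adjusted p = 0.808, edgeR) with all libraries, -3.33 (adjusted p = 0.118) without cardiac crest replicate 3, and -3.55 (adjusted p = 0.0457) without replicate 3 of both groups. The last of these was chosen after seeing the data. The part of neural and muscle transcripts in the emx2 values was not tested. The 6 listed neural tube markers summed to 239.6 to 582 RPM in cardiac crest and 12.1 to 39.3 RPM in trunk crest.

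The homeobox gene barx1 (ENSDARG00000007407, chromosome 11, 27295919 to 27298545, plus strand), which favours cartilage over joint in the zebrafish arches, was low in all groups. It had 19, 65 and 57 reads in cardiac crest (0.426, 1.91 and 1.42 RPM), 0, 74 and 0 reads in trunk crest and 0, 46 and 0 reads in non-crest. All cardiac crest libraries held barx1 reads, while in trunk crest and in non-crest only replicate 2 did, at 2.68 and 1.29 RPM. The log2 fold change over non-crest was 1.63 ± 1.67 (adjusted p = 0.801, edgeR), and 8.58 (adjusted p = 0.113) without non-crest replicate 2, when the non-crest libraries left held 0 reads. Over trunk crest it was 2.76 ± 1.66 (adjusted p = 0.266, limma), but 0.13 (adjusted p = 0.963) by edgeR on the recovered reads. Without trunk crest replicate 2 it was 4.97 with an adjusted p of 0.0109 by limma. The authors' deposited table gives -0.08 for trunk over cardiac (adjusted p = 0.982).

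The homeobox gene gsc (ENSDARG00000059073, chromosome 17, 19323179 to 19325685, minus strand), goosecoid, is an organiser gene that later marks arch crest. It had 25, 7 and 0 reads in cardiac crest, against 0 reads in all 3 non-crest libraries. Its reads came from 2 cardiac crest libraries, so the groups overlapped at 0. As for the zeros of foxd3 above, whether those of gsc come from counting or from expression was not tested. At 32 reads, 25 of them in 1 library, the gene fell below the expression filter and was not tested, and no fold is given. With no filter, edgeR gave an adjusted p of 0.389.

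The genes were chosen with earlier results of these data known, so the counts below are descriptive only. Against non-crest, 0 of the 7 genes tested were called by edgeR, where 1.50% of all 19648 genes tested were. Of 8 crest markers tested, 2 were called higher in cardiac crest and 0 lower by edgeR. At an unadjusted p below 0.05 by edgeR there were 4 of 7, against 10.8% of all genes. DESeq2, which gave no p for emx2, called 3 of the others, namely ednrab, fgf20b and grem2b, against 5.50% of the 19088 genes with an adjusted p. In 4 of 7 the libraries did not overlap, with ednrab, fgf20b and grem2b above and edn1 below, where 17.0% of all genes did not overlap. Against trunk crest, limma called 3 of 7, all of them higher in cardiac crest: ednraa, emx2 and fgf20b. Of all 20847 genes, 23.2% were called in either direction and 10.7% as higher in cardiac crest. The libraries of the same 3 genes did not overlap, where 41.4% of all genes did not. The calls of these genes against trunk crest held in every alternative listed in the closing section, with highest adjusted p-values of 0.0162 for ednraa, 0.0474 for emx2 and 0.0137 for fgf20b by limma.

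**Figure D3:**
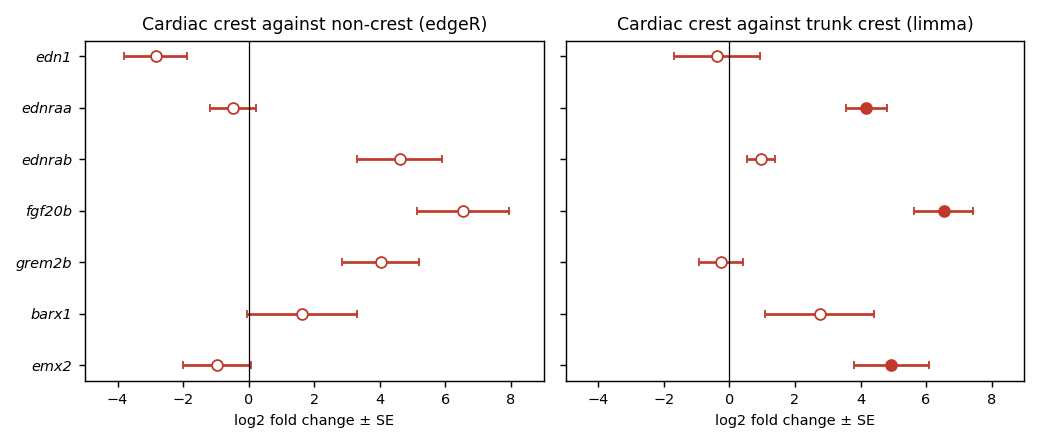
Log2 fold change of cardiac crest over non-crest (edgeR) and over trunk crest (limma, log2(value + 1)) for the 7 genes tested, with SE bars. Filled points have an adjusted p below 0.05: ednraa at 4.18, emx2 at 4.93 and fgf20b at 6.54 against trunk crest, and no gene against non-crest.

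Other genes of the pathway were read from lists of known arch genes, leaving out the 8 above. The lists were chosen with earlier results of these data known, so their counts are descriptive only. Against non-crest no listed gene was called, in 12 endothelin, 16 ventral and intermediate, 12 dorsal, 8 arch homeobox, 8 BMP antagonist and 11 Fgf genes tested with edgeR. The list medians ran between -0.86 (BMP antagonists) and 0.61 (arch homeobox) on the log2 scale, beside -0.04 over all genes. The genes nearest to a call were ednrba, msx2b and dlx2a. The type B receptor gene ednrba, which acts in pigment cells, had 8.10 ± 2.40 CPM in cardiac crest, against 0.158 ± 0.207 CPM in non-crest cells (SD, n = 3 each; adjusted p = 0.0754, edgeR). The BMP-responsive gene msx2b had 73.6 ± 20.9 CPM in cardiac crest, against 15.8 ± 11.3 CPM in non-crest cells (adjusted p = 0.0984, edgeR). The arch homeobox gene dlx2a had 632 ± 227 CPM in cardiac crest, against 14.8 ± 17.5 CPM in non-crest cells (adjusted p = 0.117, edgeR). In the opposite direction, mef2cb of the endothelin list had 10.7 ± 6.16 CPM in cardiac crest, against 48.9 ± 20.2 CPM in non-crest cells (adjusted p = 0.132, edgeR). The 9 endothelium and blood markers summed to 9.54 to 39.5 CPM in cardiac crest and 810 to 2332 CPM in non-crest. The part of such tissues in the mef2cb values was not tested.

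Against trunk crest, where 23.2% of all genes were called and 10.7% as higher in cardiac crest, the lists are described by their counts. Of 16 ventral and intermediate genes, 8 were called higher in cardiac crest and 0 lower by limma, with a list median of 4.28 on the log2 scale, beside 0.14 over all genes. The forkhead gene foxf2a had 958, 303 and 293 scaled reads in cardiac crest, against 0 in every trunk crest library, at least 402-fold higher with trunk crest set to 3 reads over its libraries. The ligand gene bmp4 had 419 ± 90.6 scaled reads in cardiac crest, against 14.1 ± 12.5 in trunk crest (SD, n = 3 each; adjusted p = 0.000839, limma). The joint gene nkx3.2 averaged 602 scaled reads in cardiac crest, against 4.73 in trunk crest (adjusted p = 0.00123, limma). The ventral gene hand2 had 20.3, 229 and 378 scaled reads in cardiac crest, against a single read in trunk crest, a ratio of 474 with a 95% counting interval of 85 to 18732, and dlx4b had 2 reads in trunk crest.

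Dorsal genes moved in the same direction: 8 of 12 were called higher in cardiac crest and 0 lower by limma, with a median of 2.73. The POU-domain gene pou3f3a had 181, 227 and 911 scaled reads in cardiac crest, against 0 in trunk crest. It was not particular to crest, with 93.6, 62.4 and 29.8 CPM in non-crest, against 5.8, 8.66 and 31.4 CPM in cardiac crest. The receptor gene notch2 was higher in cardiac than in trunk crest by 2.85 ± 0.40 on the log2 scale (adjusted p = 0.00152, limma). Of 10 arch homeobox genes, 4 were higher and 1 lower, with a median of 1.23. The gene dlx2a averaged 18407 scaled reads in cardiac crest, against 97.9 in trunk crest, and dlx1a had 134 to 223 scaled reads in cardiac crest, against 0 in trunk crest. The gene alx4a fell to 226 ± 62.8 scaled reads in cardiac crest, against 4732 ± 1432 in trunk crest (adjusted p = 6.63e-05, limma).

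Among 9 BMP antagonist genes other than grem2b, 4 were higher and 1 lower (limma; median 2.31). The noggin gene nog3 had 40.0 to 130 scaled reads in cardiac crest, against 0 in trunk crest, whereas the follistatin gene fstb was lower by -5.54 on the log2 scale (adjusted p = 0.00389, limma). Its paralogue fsta was higher by 7.02 (adjusted p = 0.0259, limma), a call lost without trunk crest replicate 2 (adjusted p = 0.101). Of 12 Fgf ligand and receptor genes other than fgf20b, 8 were higher and 1 lower, with a median of 2.74, or 3.14 with genes at 0 in trunk crest set to their bound. The receptor gene fgfr2 had 1338 ± 221 scaled reads in cardiac crest, against 74.3 ± 26.7 in trunk crest (adjusted p = 0.000132, limma). All cardiac crest libraries were below all non-crest libraries for fgfr2, at 47 ± 11.7 against 78.6 ± 12.8 CPM. That difference was not called (adjusted p = 0.441, edgeR). The ligand gene fgf3 had 60.9 to 447 scaled reads in cardiac crest, against 0 in trunk crest.

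Of 13 other endothelin genes tested by limma between the crest groups, 1 was higher, 1 was lower and 11 were not called, with a median of -0.27, where 23.2% of all genes were called. The gene ednrba fell to 234 ± 73.8 scaled reads in cardiac crest, against 2162 ± 452 in trunk crest. The difference was -3.24 ± 0.33 on the log2 scale (adjusted p = 0.000291, limma). The effector gene plcb3, a phospholipase C beta, had 558 ± 20.6 scaled reads in cardiac crest, against 255 ± 34.4 in trunk crest (adjusted p = 0.0233, limma, and 0.067 without cardiac crest replicate 2). Marker genes of other tissues also differed between the crest groups: 4 of 4 placode and ear markers and 5 of 6 neural tube markers were called higher in cardiac crest by limma. The 4 placode and ear markers summed to 38.1 to 106 RPM in cardiac crest and 0.955 to 2.17 RPM in trunk crest. Muscle markers went the other way: of 7 tested by limma, 2 were lower in cardiac crest and 0 higher, with a median of -6.88. They summed to 13.0, 23.1 and 8561 RPM in cardiac crest and 21007, 5393 and 7420 RPM in trunk crest. The part of these tissues in the list counts, genes higher in trunk crest included, was not tested.

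**Figure D4:**
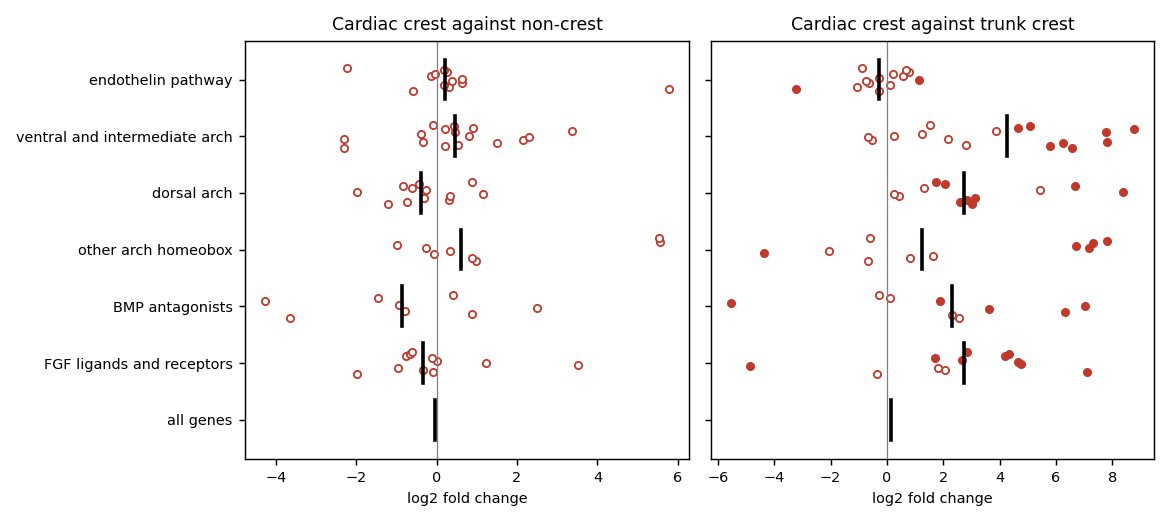
Log2 fold change of cardiac crest over non-crest (edgeR) and over trunk crest (limma) for each gene of the 6 pathway lists, with the list median as a black bar. Filled points have an adjusted p below 0.05. Against trunk crest 16 of 28 ventral, intermediate and dorsal genes are filled, all of them higher, and against non-crest no point is filled.

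The genes most like each of the 7 across the 9 libraries were taken by Pearson correlation of log2(RPM + 1) among 9245 genes with a mean of at least 5 RPM. These values describe 9 libraries that share group and preparation. The pattern of ednrab was nearest to atp1b2a (r = 0.987), slc1a3a (0.986) and erbb3b (0.978), a neuregulin receptor gene of crest and glia. That of emx2 was nearest to nkx6.2 (0.983), hoxb5b (0.979) and dbx2 (0.975), where nkx6.2 and dbx2 are homeobox genes of the neural tube. That of fgf20b was nearest to gh1 (0.990), the growth hormone gene, then ddb2 (0.952) and hpdb (0.950). For ednraa the nearest were plcg1 (0.978), dnajc21 (0.974) and ywhaqa (0.973), and for grem2b they were mtmr1b (0.964), fabp3 (0.949) and ttll12 (0.933). For edn1 they were rab11bb (0.953), homer2 (0.917) and rpz4 (0.909). The likeness was weakest for barx1, which had 0 reads in 4 libraries, with pcmtl at 0.854.

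The order of the genes per kilobase of gene body differed between groups. The gene bodies run from 1200 bases (fgf20b) to 36813 bases (ednraa), introns included, so the order holds for this scale only, and in RPM the cardiac crest means of grem2b and ednraa were above that of fgf20b. In cardiac crest, after ednrab, fgf20b was second per kilobase at 5.63 ± 2.08 RPM per kb (rank 2596 of 20847), ahead of grem2b at 1.58 ± 1.31, emx2 at 0.852 ± 1.18, barx1 at 0.477 ± 0.288, ednraa at 0.222 ± 0.107 and edn1 at 0.0345 ± 0.0274. From grem2b to ednraa, the ranges of mean ± SD of neighbours in that order overlapped. In trunk crest grem2b was second, at 1.32 ± 0.764 RPM per kb. By its mean barx1 came next, at 0.339 ± 0.588 RPM per kb, but replicate 2 alone held its trunk crest reads. In non-crest emx2 was second, at 1.72 ± 0.658 RPM per kb, and fgf20b was last, at 0.0628 ± 0.109.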

How the data were processed

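Cells sorted by reporter fluorescence were profiled with SMART-Seq v4 cDNA and single-end reads, per the labels' protocols. Reads were aligned with Bowtie2 and counted with featureCounts, per the submitters' processing notes. The deposited count table (cardiac crest, non-crest) holds raw read counts, made with featureCounts 1.5.1 over whole gene bodies, introns included and without strand, on Ensembl release 80 models of GRCz10, per the file headers. None of the 8 genes overlaps another. The second deposited table (cardiac crest, trunk crest) holds a signal, reads divided by a size factor, for 20847 genes, with the authors' log2 fold changes and adjusted p-values. DESeq is named without a version in the submitters' processing notes. Whole reads were recovered for 100% of its values (tolerance 0.02), and they equalled the raw counts of all 20847 genes in the cardiac crest libraries.

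Groups came from the labels. Counts were tested with edgeR 4.0.16 (TMM, default expression filter, quasi-likelihood) in R 4.3.3. Its SE was derived from the test, as the absolute log2 fold change over the root of the F statistic. The design had assumed counts for the second table; its stated fallback, limma 3.58.1 on log2(value + 1), was used. The alternatives were DESeq2 1.42.0, other scaling, filters and pseudocounts, a replicate block, edgeR on recovered reads, and leaving out libraries. Tests were checked on simulated data, with the same spread set for all genes and changes only in genes above the median level. That check does not cover low genes or genes that vary more than the set spread. The gene gsc was matched by a reference symbol in other case, and 79 of 98 list symbols were matched. The genes and lists were chosen with earlier results of these data known. All 8 genes are named, with up to 5 genes past the test per list and comparison by adjusted p (otherwise 2), and the 3 genes most like each of the 8 that had at least 100 reads.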

Additional observations from a re-analysis of the deposited data

How the results depend on the processing

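Against non-crest, 0 of the 7 genes and 294 of all genes were called. DESeq2 called 3 genes and 1050 of all genes, and leaving out replicate 3 of both groups, chosen after seeing the data, called 2 (ednrab, 4.27; emx2, -3.55) and 752, with 264 shared. Leaving out 1 library called 0 to 1 of the 7 and 93 to 361 of all genes. A replicate block called 1 (grem2b, 4.53, adjusted p = 0.0353, edgeR) and 284 of all genes, and gave 4.09 for barx1 and -2.28 for emx2. Deviations of same-numbered libraries correlated at 0.037, 0.029 and 0.180 (non-crest) and 0.009, 0.028 and -0.005 (trunk crest). Cardiac crest replicates 1 and 3 correlated best with the same-numbered non-crest library, but replicate 2 with non-crest replicate 1 (0.235). For trunk crest, cardiac crest replicates 1 and 2 correlated best with their own number, but replicate 3 with trunk crest replicate 1 (0.026). Library numbers in the labels are consecutive within each pair of cardiac crest and non-crest libraries, but the labels name no shared preparation, so the libraries were not treated as pairs. Against trunk crest, 3 of the 7 and 4829 of all genes were called, 3 to 4 and 3205 to 4591 without 1 library, 3 and 4273 with the replicate block, and 4546 by edgeR on recovered reads, of which 4364 were shared. The sign of uncalled genes turned for ednraa against non-crest (-0.93 to 0.06 without 1 library), edn1 against trunk crest (-1.75 to 0.85) and grem2b against trunk crest (-0.97 to 0.37 without 1 library, 0.01 by edgeR on recovered reads). The emx2 fold change against trunk crest was 2.68 with a pseudocount of 10. The receptor share difference was -55.0 to -10.4 points against non-crest and 0.344 to 0.597 against trunk crest without 1 library. The causes of these shifts were not tested. DESeq2 gave no p for emx2, and edn1 fell below the filters of edgeR on recovered reads and of a mean of at least 10. Depth limits edn1, barx1 and gsc, and the trunk crest values of emx2, ednraa and fgf20b.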
